A study of Mus musculus with 49 samples.

Results

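The cells described are diploid mouse embryonic stem (ES) cells, grown with serum, that the authors placed in G1, the stretch of the cell cycle between cell division and DNA replication. They were chosen by the authors' own calls, as the cells of the serum table that passed quality control and carry the group name G1, a name the authors drew from the measured contacts of each cell. There were 146 of them, out of 859 passing serum cells and 4098 passing cells in the series (5871 listed). The study measured contacts between chromosome segments by Hi-C in single cells, to follow chromosome folding through the cell cycle. All diploid cells came from 1 F1 hybrid line of 129/SV-Jae and castaneus mice. Serum cells grew in ES-DMEM with fetal bovine serum on feeder cells, from which they were separated by beads and by sorting for Oct-3/4. Serum G1 cells were compared with 368 early-S and 322 late-S/G2 cells of the same libraries, and with 404 diploid G1 cells grown in 2i medium without feeders. Some 2i libraries were sorted on Hoechst and Geminin. The 2i libraries with at least 10 G1 cells carry the condition names 1CDU, NoSort and 1CD_G1. The tables hold no values per gene, so neither the ES identity of the cells nor leftover feeder cells could be checked against marker genes.

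In mitosis chromosomes are packed into compact rods, in which many contacts lie at intermediate distances and domains and compartments are faint. On entering G1 the chromosomes unfold: contacts at the mitotic distances become fewer, borders of domains (insulation) return, and active (A) and inactive (B) chromatin gather apart as compartments. In these data the mean compartment score within chromosomes of post-M and pre-M cells, given below, was not lower than that of G1 cells. ES cells are known for a short G1 phase.

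The G1 cells lay in 8 libraries, each a deposited sample with a sequencing lane of its own. Library diploid 3 held 39 of them, diploid 9 held 24, diploid 4 held 21, diploid 8 held 17, diploid 5_10 held 15, diploid 2_14 held 13, diploid 7 held 10 and diploid 1_6 held 7. G1 cells made up 17% of the passing serum cells (95% Clopper-Pearson interval 14.5% to 19.7%), and between 12.7% and 30.4% of those of a library. Intervals cover counting error only. A G1 cell had a median of 254436 contacts (27251 to 564076), against 243906 in early-S, 267667 in late-S/G2 and 180336 in 2i G1 cells. Tests were run over library means, and 7 libraries with at least 10 G1 cells (all but diploid 1_6) entered them. Separate cultures are not named for the libraries, so a p-value speaks only of how these libraries vary. The 146 cells used 103 pairs of index barcodes, of which 30 occurred in more than 1 library, and no cell had the values of another.

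The rule that made this group rests on contact distances, so the values below describe it and are not tested. The short-range share, the part of a cell's contacts in the band of near distances, had a median of 54.7% (33.2% to 63.9%) in G1. The group ends close to one value of this share. The G1 cells nearest to the limit had 63.9%, 63.5% and 63.5%, and the early-S cells nearest to it had 62.2%, 62.4% and 62.4%. Only 11 G1 and 9 early-S cells lay in the overlap. At the other end the mitotic-band share, the part of contacts at distances typical of mitosis, set G1 apart from post-M. The G1 cells nearest to post-M had 29.6%, 27.7% and 27.5%, and the post-M cells nearest to G1 had 32.4%, 38.2% and 40.3%. The limits of both bands, and whether other columns entered the grouping or the order of cells, are not stated in the sources used here.

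The replication score, the authors' measure of coverage that rises as early-replicating DNA is copied and whose lowest cell in the serum table is 1, was low in G1. Its median was 1.03 in G1 cells, against 1.20 in early-S cells. Of the 146 G1 cells, 1 exceeded the early-S median (1.21), and 12 of 368 early-S cells lay under the G1 median. The 2 groups overlapped in their tails, since the 95th percentile of G1 cells was 1.12 and the 5th percentile of early-S cells 1.04. Coverage deviation, a score of how unevenly a cell's chromosomes are covered, had a median of 0.348 in G1 cells and reached 0.870. Passing cells of the other large serum groups stayed under 1 as well.

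Over the 7 libraries, the far-contact distance of G1 cells, the mean span of long-range contacts within a chromosome, was 23.4 ± 1.12 Mb (SD, n = 7 libraries here and below), with library means from 21.5 to 24.3 Mb. Contacts between chromosomes made up 5.47% ± 0.477 of a cell's contacts, from 4.94% to 6.37%. The alignment score, which the table lists for contacts between chromosomes, was 0.324 ± 0.0454. The cis compartment score, the contrast of A and B compartments within chromosomes, was 0.0968 ± 0.00366, and its counterpart between chromosomes, the trans compartment score, was 0.0169 ± 0.00846. Trans compartment scores were below 0 in 43 of 146 G1 cells (29.5%, interval 22.2% to 37.6%), against 39 of 368 early-S cells (10.6%) and 33 of 322 late-S/G2 cells (10.2%). The insulation score, the strength of domain borders, was 2.34 ± 0.0281. The scales of the scores are not defined, so a score is read only against other cells of the table.

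**Figure D1:**
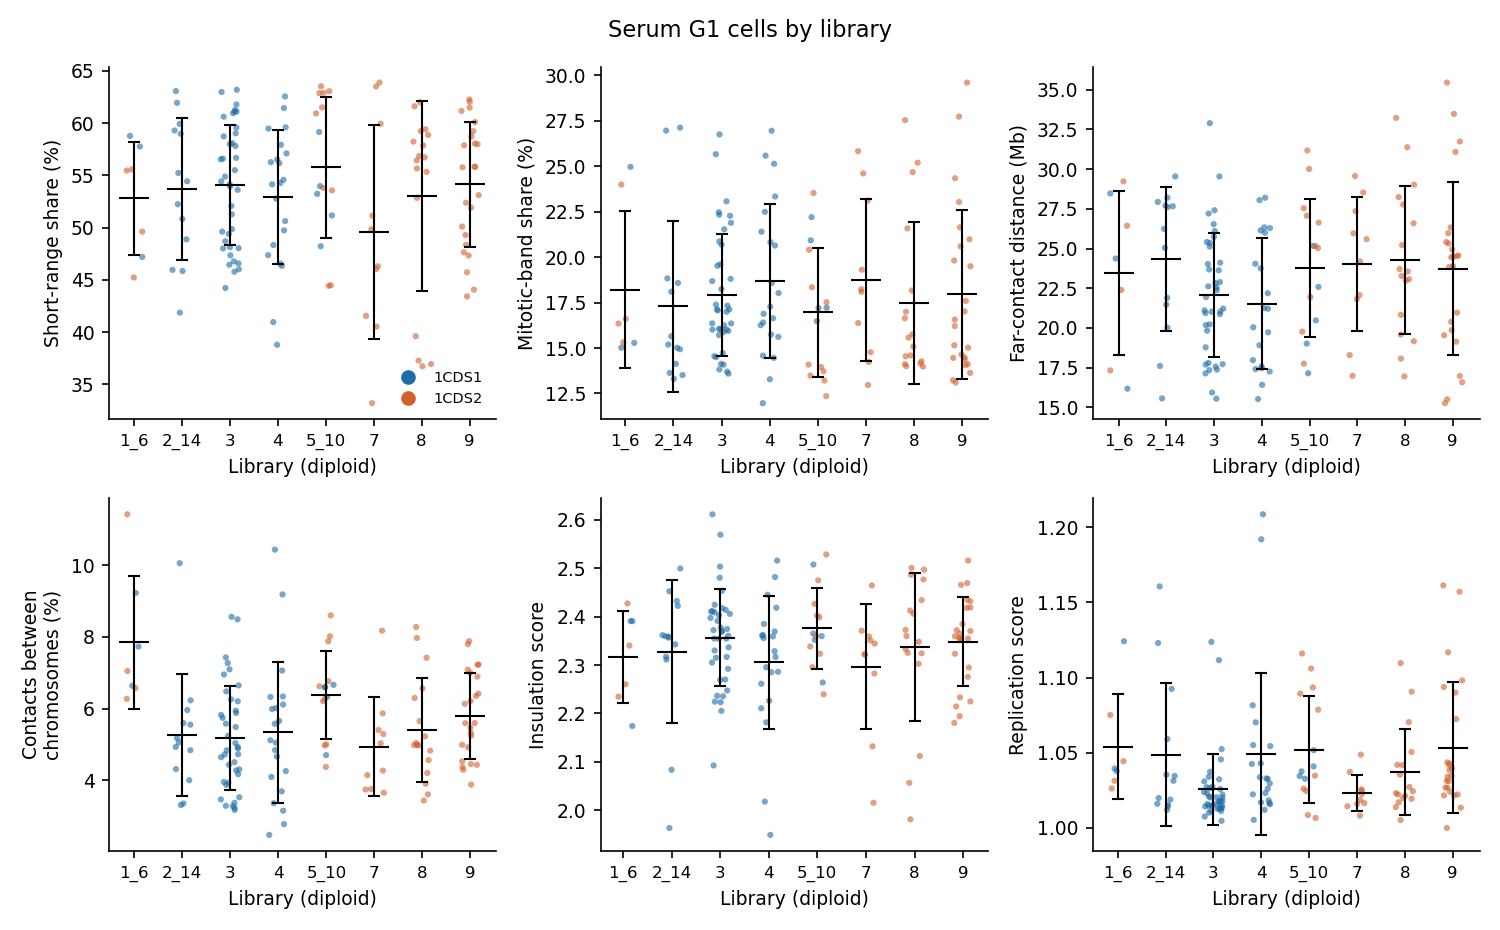
Values of the 146 serum G1 cells by library for 6 features (y axes in percent, Mb or the authors' score). Points are cells, coloured by the authors' condition, and black marks give the mean and SD over the cells of a library. The short-range share runs from 33.2% to 63.9% over the cells of diploid 7 and from 44.2% to 63.2% in diploid 3. Library means lie from 49.6% to 55.8% where at least 10 cells were present.

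Most of the variation among G1 cells lay within libraries. The authors number 10 batches among these cells, and diploid 5_10 and diploid 1_6 each join more than 1 of them. A difference between the joined batches of diploid 5_10 is counted below as spread within that library. Splitting the variance of 139 cells in the 7 libraries, the library accounted for 0% in the short-range share, the mitotic-band share, the cis compartment score and the insulation score. It accounted for 1.84% in far-contact distance, 1.32% in the trans compartment score and 3.27% in the share between chromosomes. The alignment score stood out among folding features with 15.7%, and the replication score had 7.03%. Measures of library quality were higher again in part, with 21.1% for the duplicated share (fragment ends seen more than once), 12.8% for contacts per cell and 11.2% for the share without digestion. The SD over cells was of like size in each library for far-contact distance (3.90 to 5.43 Mb) and the mitotic-band share (3.36 to 4.71 points). It was most uneven for the replication score, from 0.0119 in diploid 7 to 0.0539 in diploid 4, a ratio of 4.51. Diploid 4 had the fewest contacts per G1 cell of the 7 libraries (mean 157229) and diploid 7 the most (343407). Within libraries the replication score went down with contacts in 6 of 7 (median Spearman rho -0.54 over cells), and the part of depth in its spread was not tested.

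Diploid 1_6, with 7 G1 cells, stood apart from the others and entered no test with the minimum of 10 cells. Its share between chromosomes averaged 7.84%, above the highest of the 7 other library means (6.37%). Its duplicated share averaged 5.60%, against at most 3.53% elsewhere, and its coverage deviation 0.536, against at most 0.425. Its alignment score of 0.267 was close to that of diploid 7 (0.269). Its short-range share of 52.8% and far-contact distance of 23.5 Mb lay among those of the other libraries.

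The authors' order runs through G1 from place 7 to place 152, and folding changed along nearly all of it. The order was made from contacts of the same cells, so its course is a description with no test. Averaged in 4 bins of the order with 37, 36, 36 and 37 cells, the short-range share was 44.7%, 52.1%, 56.9% and 60.5%, and the mitotic-band share was 23.8%, 18%, 15.7% and 14%. Far-contact distance was 18, 21.6, 24.4 and 28.4 Mb in the same bins. The share between chromosomes was 4.28%, 5.26%, 6.21% and 6.55%. As the order advanced, the near band held more contacts, far contacts spanned more, and contacts between chromosomes became more frequent.

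Other features took another pace. The insulation score was 2.20 in the first bin and 2.37, 2.38 and 2.41 in the next ones, so most of its change lay between the first bin and the next. The alignment score went the opposite way and late: 0.390, 0.366, 0.333 and 0.232. The trans compartment score was 0.00396, 0.0149, 0.0198 and 0.0207, and the cis compartment score 0.0869, 0.0932, 0.106 and 0.102. The 6 post-M cells placed before G1 had a mean cis compartment score of 0.101, above the first and second bins. The 17 pre-M cells averaged 0.151. The replication score stayed between 1.03 and 1.05, with a median per bin from 1.02 to 1.04. The conditions were mixed in each bin, with 20, 23, 23 and 15 cells of 1CDS1 and 17, 13, 13 and 22 of 1CDS2.

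**Figure D2:**
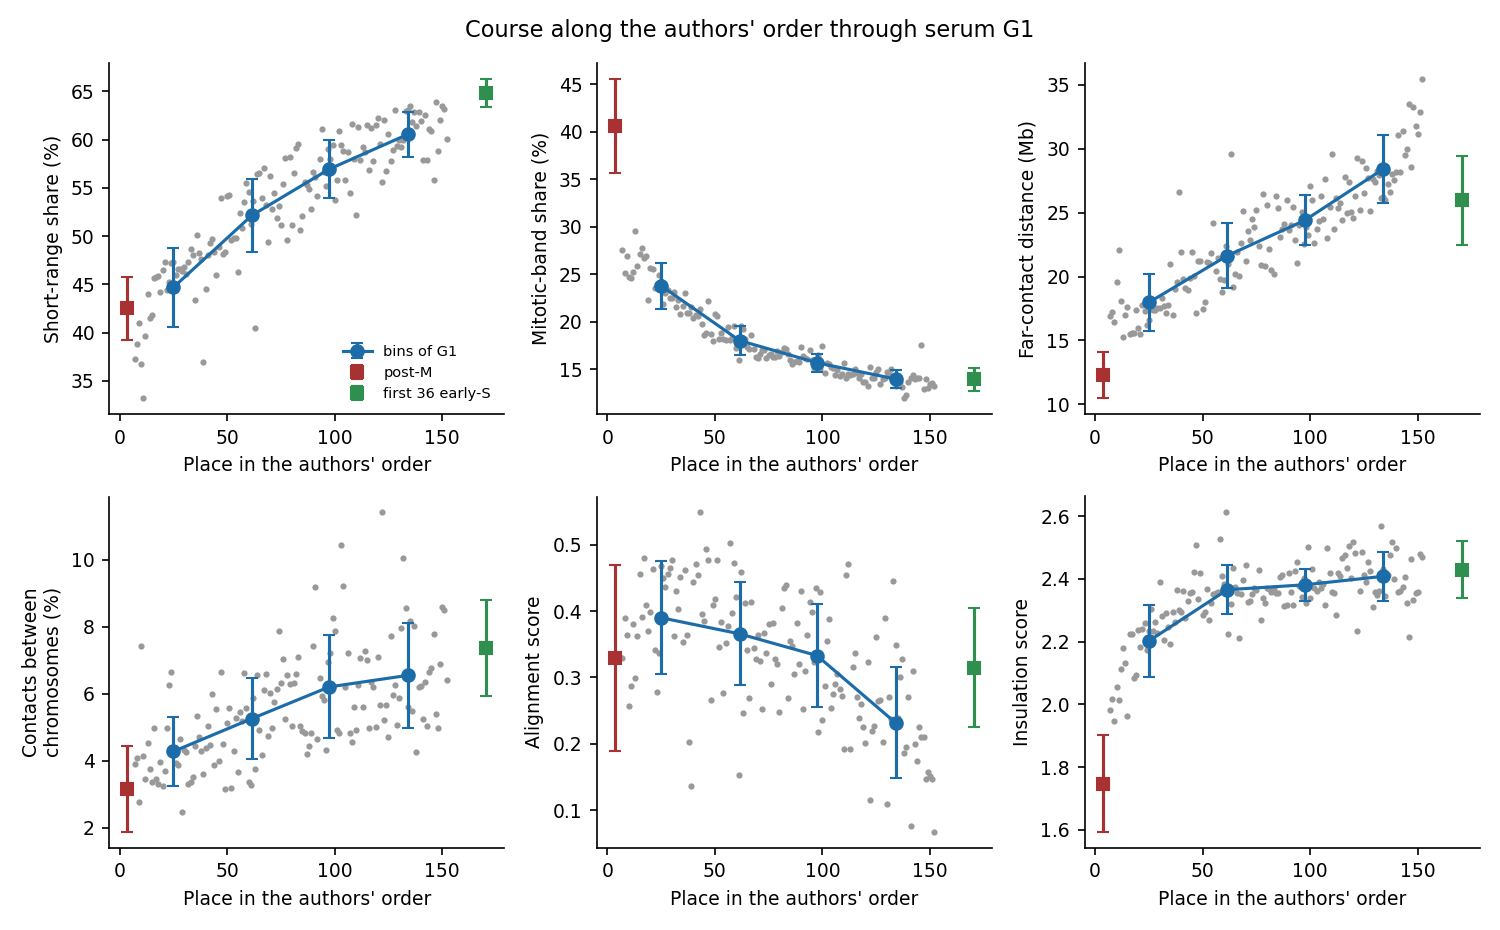
Feature values of serum G1 cells against their place in the authors' order (grey points, 146 cells). Blue points give the mean and SD of each bin, the red square the 6 post-M cells before G1 and the green square the first 36 early-S cells after it. Insulation levels off after the first bin, at 2.37 to 2.41, while far-contact distance goes on to 28.4 Mb and the alignment score drops to 0.232 in the last bin.

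The course held within single libraries. Cells at places 80 to 152 were set against those at places 7 to 79 in the 6 libraries with at least 5 cells in each stretch, and 6 of 13 features moved in 1 direction in all 6 libraries. The far-contact distance averaged 26.5 ± 0.981 Mb in the later and 19.6 ± 0.841 Mb in the earlier stretch, a difference of 6.89 Mb (5.51 to 8.17). The short-range share was 10.5 points higher in the later stretch, and the mitotic-band share differed by -6.36 points. The share between chromosomes was 6.27% ± 0.486 in the later and 4.83% ± 0.602 in the earlier stretch. Insulation was 2.40 ± 0.0159 in the later and 2.28 ± 0.0541 in the earlier stretch, and the alignment score 0.284 ± 0.0494 and 0.390 ± 0.0494. Both compartment scores and the replication score were higher later in 5 of 6 libraries. Contacts per cell were higher in 3 and lower in 3.

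Rank correlations with the order were strongest for the contact distances among these features. Over the 7 libraries, the median Spearman rho over cells was -0.95 for the mitotic-band share, 0.90 for far-contact distance, 0.89 for the short-range share, 0.65 each for insulation and the share between chromosomes, and -0.63 for the alignment score. It was 0.29 for the replication score, positive in 7 of 7 libraries, and 0.01 for contacts. Features that ran with the order also ran with each other. Among 36 pairs of the 9 folding features, 17 had 1 sign in every library and 12 had a median size of 0.5 or more. Cells with a longer far-contact distance had lower alignment scores (median rho -0.75, from -0.87 to -0.60). Cells with more short-range contacts had more contacts between chromosomes (0.72) and stronger insulation (0.64). These correlations share the cell's contacts and its place in G1.

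At the end of G1 some features turned. In 6 libraries with cells on both sides, the last bin of G1 was set against the first 36 early-S cells. The last bin held 37 cells over all libraries, so each library mean rests on few cells. Far-contact distance was 28.1 Mb in the last G1 bin and 25.8 Mb in the first early-S cells, 2.22 Mb longer in G1 on average and longer in 5 of 6 libraries. The alignment score was 0.237 in the last G1 bin and 0.316 in the early-S cells, lower in G1 in 6 of 6. The share between chromosomes was 0.886 points lower in G1 (a difference of -0.886), in 6 of 6, whereas insulation (-0.00532), the mitotic-band share (-0.0928 points) and both compartment scores had no common direction. The order and the border were made from contacts, so these turns may depend on how cells were placed, which was not tested.

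Averaged over each phase, serum G1 cells had shorter far contacts, fewer contacts between chromosomes and weaker compartments within chromosomes than early-S cells. Far-contact distance was 23.4 ± 1.12 Mb in G1 and 25.6 ± 0.715 Mb in early-S libraries, lower in 7 of 7. This mean joins the early and late cells of the course above, and the last G1 bin lay above the early-S mean. The difference in the cis compartment score was -0.0279 (7 of 7 libraries lower in G1) and that in the share between chromosomes -2.17 points. The alignment score was 0.0348 higher in G1 (7 of 7). The replication score differed by -0.138 and the duplicated share by -0.306 points, each lower in G1 in 7 of 7. Insulation did not pass, at 2.34 ± 0.0281 in G1 and 2.35 ± 0.0425 in early-S, lower in 4 of 7. In an exact two-sided sign-flip test over the 7 libraries with Benjamini-Hochberg adjustment over 22 phase tests, 6 of 11 tested features passed, which is 54.5% of those tested. For each the adjusted p was 0.0313, and the smallest unadjusted p that 7 libraries allow is 0.0156. The phases were cut from the same contacts, so nothing further is read from this count.

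Against late-S/G2 cells, serum G1 cells had stronger domain borders and weaker compartments within and between chromosomes. Insulation was 2.34 ± 0.0281 in G1 and 2.15 ± 0.0352 in late-S/G2 cells, and the lowest G1 library (2.30) lay above the highest late-S/G2 library (2.21). In a randomly paired G1 and late-S/G2 cell of a library, the G1 cell had the higher insulation in 89.0% of pairs (78.9% to 98.6%). The cis compartment score was 0.0968 in G1 and 0.145 in late-S/G2 libraries, also without overlap, and the trans compartment score 0.0169 and 0.0390. The replication score was 0.173 lower in G1 on average (a difference of -0.173). Coverage deviation was 0.346 ± 0.0469 in G1 and 0.279 ± 0.0419 in late-S/G2, higher in 7 of 7. These 5 features passed (exact adjusted p = 0.0313 each in the sign-flip test), 45.5% of the 11 tested. These phases too were cut from the same contacts, and whether the tested features entered the cut is not stated. Nothing further is therefore read from this count. Far-contact distance (-0.368 Mb), the share between chromosomes (-0.690 points, lower in 5 of 7) and the alignment score (0.00836) did not pass, with exact adjusted p of 0.633, 0.106 and 0.670. The far-contact difference was -1.72 Mb in the 3 libraries of 1CDS1 and 0.855 Mb in the 3 of 1CDS2. Leaving out a single library, whether diploid 3, 4, 7, 8, 9, 2_14 or 5_10, ended every phase call with its direction kept (exact adjusted p from 0.0573 to 0.0625), since 6 libraries cannot go below an unadjusted p of 0.0313. Restricting cells to the 25th to 75th percentile of contacts also ended them (exact adjusted p 0.196 or more), with 4 or 5 libraries left. With medians over cells in place of means, far-contact distance and the duplicated share against early-S and coverage deviation against late-S/G2 no longer passed (exact adjusted p up to 0.183), with the direction kept.

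**Figure D3:**
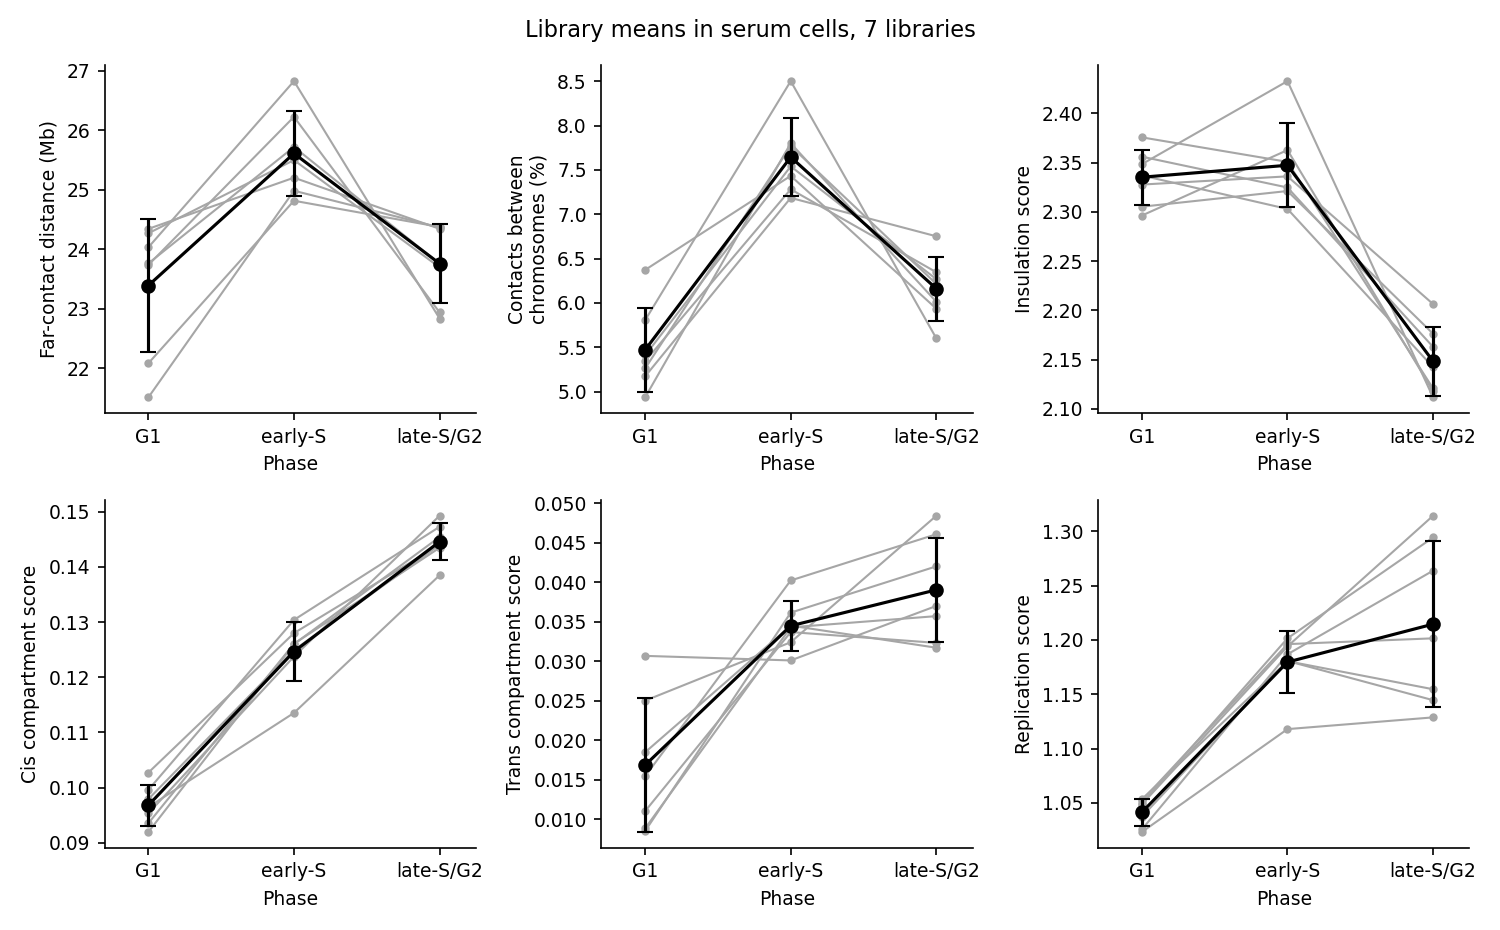
Library means of 6 features in G1, early-S and late-S/G2 serum cells (y axes in Mb, percent or the authors' score). Grey lines join the phases of 1 library, and black points give mean and SD over 7 libraries. Insulation is alike in G1 and early-S (2.34 and 2.35) and lower in late-S/G2 (2.15), whereas the cis compartment score is lowest in G1 (0.0968).

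The SD over the cells of a library was wider in G1 than later for contact distances, and narrower for the cis compartment and replication scores. The SD of far-contact distance over the cells of a library averaged 4.46 Mb in G1, against 2.71 Mb in early-S and 2.69 Mb in late-S/G2 cells. The log2 ratio of SDs was 0.74 ± 0.34 (SD over libraries) against early-S and 0.74 ± 0.36 against late-S/G2, positive in 7 of 7 libraries each. The SD of the short-range share averaged 7.30 points in G1, 4.28 in early-S and 2.09 in late-S/G2, and that of the mitotic-band share 4.20, 1.59 and 1.01 points. These band shares cut the groups and were not tested. The width of far-contact distance goes with its course through G1 described above. Within G1 this distance ran with the short-range share (median rho 0.72). G1 covers 33.2% to 63.9% of that share, early-S 62.2% to 79.2% and late-S/G2 76.0% to 87.7%. The test of its SD is therefore not independent of how the groups were cut, and the part of the cut in it was not tested.

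The spread was narrower in G1 for the cis compartment score, with a mean SD of 0.0227 in G1, 0.0307 in early-S and 0.0398 in late-S/G2. The log2 ratios were -0.42 ± 0.30 and -0.84 ± 0.36 against the later phases, negative in 7 of 7 libraries each. The level of the cis compartment score was also lower in G1, at 0.0968 against 0.125 in early-S and 0.145 in late-S/G2. The part of this level in its spread was not tested. For the replication score the mean SD was 0.0350 in G1, 0.0924 in early-S and 0.0769 in late-S/G2, with log2 ratios of -1.53 ± 0.83 and -1.17 ± 1.08, again negative in 7 of 7. No serum cell lies below 1 on this score, and the G1 cells lie close to it. The spread of the trans compartment score, the share between chromosomes, alignment and insulation passed in neither contrast. Exact sign-flip tests gave 4 of 11 features past the threshold against early-S (36.4%) and 3 of 11 against late-S/G2 (27.3%), each at an adjusted p of 0.0491 at the floor of 7 libraries. Beside the 3 features above, the duplicated share passed against early-S (log2 ratio -0.62). Leaving out any 1 library ended these calls (exact adjusted p from 0.0764 to 0.0982). So did the median absolute deviation in place of the SD (exact adjusted p 0.0688 or more) and removal of a linear trend on log10 contacts (0.0573 or more), with the direction of the 7 calls kept.

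**Figure D4:**
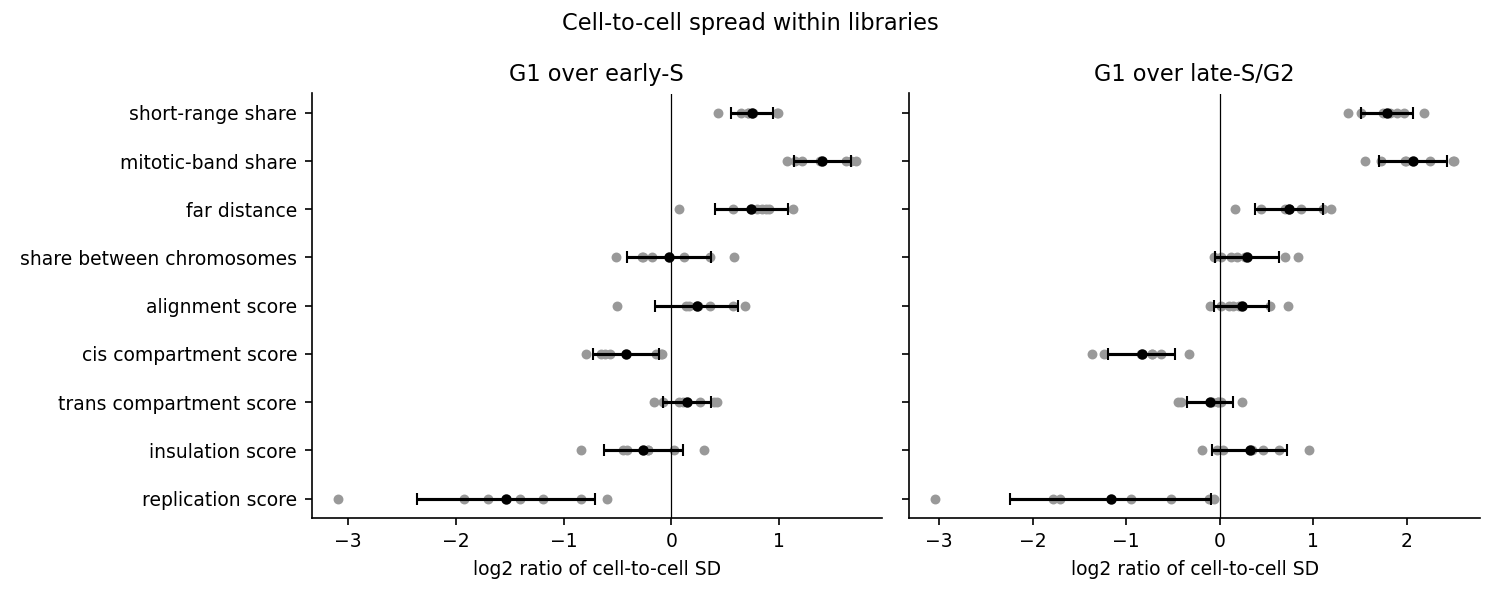
Log2 ratio of the SD over cells in G1 to that in early-S (left) and late-S/G2 (right), for 9 folding features. Grey points are the 7 libraries, black points their mean with SD. Far-contact distance lies at 0.74 in both panels and the cis compartment score at -0.42 and -0.84.

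The serum cells carry 2 condition names, 1CDS1 (81 G1 cells) and 1CDS2 (65), whose meaning the labels do not give. Alignment was higher and contacts per cell were lower in 1CDS1 without overlap of libraries, but no feature passed a test. The alignment score averaged 0.369 ± 0.0171 in 3 libraries of 1CDS1 and 0.280 ± 0.00930 in 4 of 1CDS2. Contacts per cell averaged 229820 and 318763, and the duplicated share 2.29% and 3.04%, in the same order. With an exact permutation test of library labels, 0 of 11 features passed (0%), and 0 had an unadjusted p under 0.05, because 3 against 4 libraries cannot go below 0.0571. Short-range shares hardly differed, at 53.6% ± 0.586 in 1CDS1 and 53.5% ± 3.11 in 1CDS2. Libraries diploid 5_10 and 1_6 hold both conditions in 1 lane. In diploid 5_10 the alignment score was 0.401 in 5 cells of 1CDS1 and 0.275 in 10 of 1CDS2, and in diploid 1_6 it was 0.285 in 3 and 0.253 in 4 cells. In diploid 5_10 the median place in the order was 68 for the 1CDS1 and 123.5 for the 1CDS2 cells, and alignment went down along the order. Over all G1 cells the median place was 72 in 1CDS1 and 87 in 1CDS2. The part of place in the alignment difference was not tested. The 1CDS2 cells of diploid 5_10 are also 1 of the 4 libraries above, so this lane is no separate sample. The duplicated share was 8.04% in 1CDS1 and 3.77% in 1CDS2 cells of diploid 1_6, opposite in direction to the libraries.

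Coverage deviation fell into separate ranges in G1, with 46 cells under 0.2, 11 between 0.2 and 0.3 and 89 at 0.3 or more, limits that were chosen after the values were seen. Cells with even coverage, under 0.2, were 44 of 81 in 1CDS1 (54.3%) and 2 of 65 in 1CDS2 (3.08%). In the 3 libraries with only 1CDS1 serum cells they made up 61.5% (diploid 2_14), 53.8% (diploid 3) and 52.4% (diploid 4) of G1 cells. In those with only 1CDS2 cells they were 0% (diploid 7), 5.88% (diploid 8) and 4.17% (diploid 9). In the shared lane of diploid 5_10 they were 4 of 5 in 1CDS1 and 0 of 10 in 1CDS2. In that of diploid 1_6 they were 0 of 3 in 1CDS1 and 0 of 4 in 1CDS2, so the split was absent there. The split also held in early-S cells (53.6% in 1CDS1 and 6.80% in 1CDS2) and was narrower in late-S/G2 cells (56.1% and 44.6%). No test was made of shares whose limits came from the data. Within the 3 libraries of 1CDS1, uneven cells (0.3 or more) had lower alignment scores than even ones in 3 of 3 (0.352 and 0.385), and fewer contacts (207373 and 250649). The part of coverage in the alignment difference between the conditions was not tested.

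**Figure D5:**
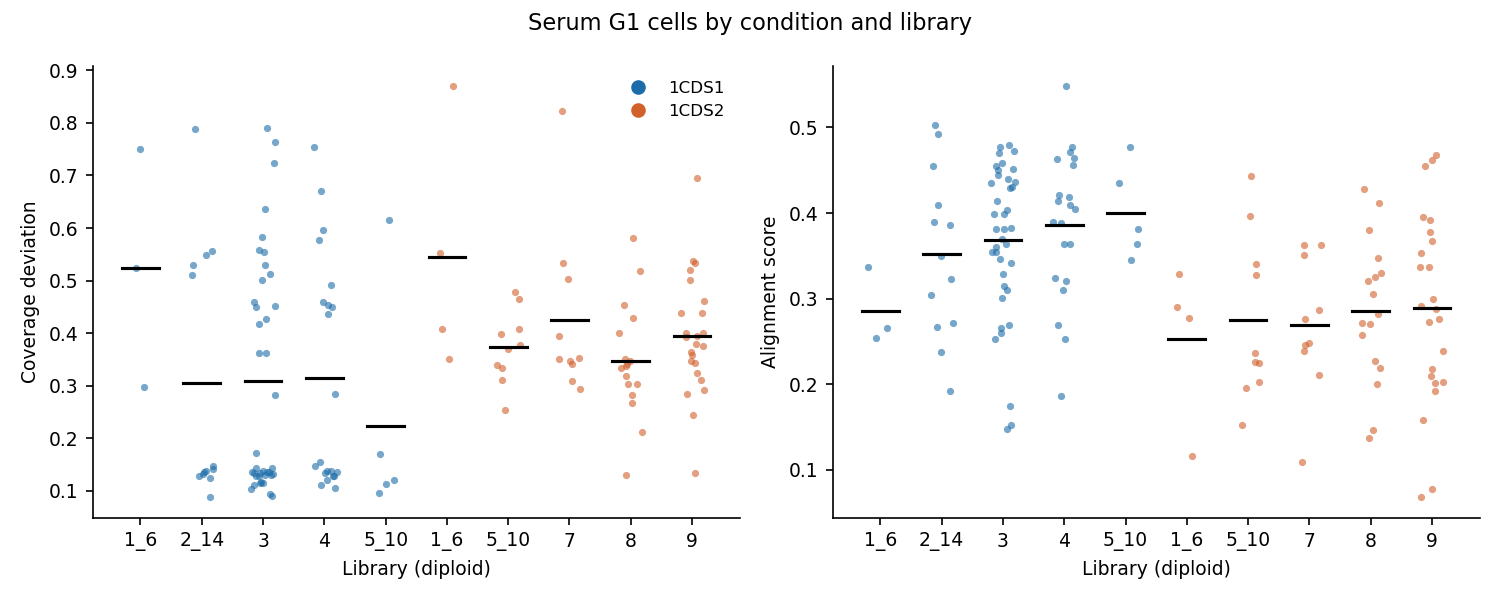
Coverage deviation (left) and alignment score (right) of serum G1 cells by library, with 1CDS1 libraries left and 1CDS2 libraries right; 1_6 and 5_10 appear under both. Points are cells and bars their means. Cells under 0.2 in coverage deviation are common in 1CDS1 (54.3%) and rare in 1CDS2 (3.08%).

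Serum G1 cells were also compared with G1 cells of the same line in 2i. The authors grouped those from contacts as well, in a separate table. The part of the grouping in a difference between the media was not tested. Far contacts of serum G1 cells spanned shorter distances. Far-contact distance averaged 23.4 ± 1.12 Mb in 7 serum libraries (lowest 21.5, median 23.8, highest 24.3) and 27.9 ± 2.01 Mb in 10 libraries of 2i (lowest 25.5, median 27.9, highest 31.4). The libraries did not overlap, and the difference of -4.46 Mb (SE 0.764) had an exact permutation adjusted p of 0.00120, its unadjusted p of 0.000200 being the smallest the 10010 regroupings can give. Of the 6 features on a scale common to both tables, 3 passed, 50% of those tested. Diploid 2_14 holds cells of both media in 1 lane. The distance there was 24.3 Mb in 13 serum cells and 28.8 Mb in 21 cells of 2i, a difference of -4.46 Mb. Both values are among the library means above, so this lane is no separate sample.

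Depth and digestion moved with the medium as well. Contacts per cell averaged 275752 ± 59911 in serum and 133149 ± 49123 in 2i libraries (exact adjusted p = 0.00240). The share without digestion averaged 31.7% ± 1.21 in serum and 40.6% ± 7.59 in 2i libraries (exact adjusted p = 0.0204). Among cells with contacts between the 25th and 75th percentile of serum G1 the far-contact difference was -3.49 Mb (exact adjusted p = 0.0476), and the part of digestion in it was not tested. Place within G1 differed too. The short-range share was 53.3% ± 1.90 in serum and 57.1% ± 1.14 in 2i G1, and the mitotic-band share 17.9% ± 0.673 and 16.2% ± 0.839. Among G1 cells with a short-range share of 50% to 60%, a range added after the data were seen, the far-contact difference was -3.44 Mb (exact adjusted p = 0.00899). It was -3.84 Mb against the 2i condition 1CDU alone and -6.21 Mb against NoSort alone. The 2 libraries of 1CD_G1 lay nearer to serum, at 25.6 Mb (25.5 to 25.7), against 27.2 Mb in 1CDU and 29.6 Mb in NoSort. They also had more contacts per cell (213693, against 117770 and 108257). The share without digestion was 35.2%, 35.7% and 48.1% in the same order, and 1CD_G1 was not tested alone. With a minimum of 20 cells per library the far-contact difference between media was -4.24 Mb and did not pass (exact adjusted p = 0.143).

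The share between chromosomes did not pass between the media, at 5.47% ± 0.477 in serum and 5.93% ± 1.10 in 2i G1 (difference -0.455 points, SE 0.393, exact adjusted p = 0.401), nor did the duplicated share or coverage deviation (0.401 each). Scores may be scaled within each table and were not tested. They are given side by side. The alignment score was 0.324 in serum and 0.246 in 2i G1, insulation 2.34 and 2.48, and the cis compartment score 0.0968 and 0.339. In the shared lane of diploid 2_14 the cis compartment score was 0.0996 in serum and 0.351 in 2i cells, which also come from the separate tables, so a scaling of each table cannot be told apart from a difference between the media. Serum and 2i cells also differ in feeders and in the Oct-3/4 sort, which cannot be told apart from the medium here.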

How the data were processed

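Features of single-cell Hi-C cells were taken from 3 deposited tables (diploid serum, diploid 2i, haploid), of which the diploid ones were analysed, with a list pairing cells with libraries. Per the submitters' processing notes, reads were aligned with Bowtie2 to mm9, and how the features were computed is not given in the sources used here. Contacts per cell are a deposited count. The short-range, mitotic-band, between-chromosome, undigested and duplicated shares are each a deposited fraction of a total that is not stated, shown as a percent. Alignment, compartment, insulation, replication and coverage deviation are each a deposited score without a defined scale. Far distance was deposited in bp, read from its range, and is shown in Mb.

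Batch numbers were joined to libraries through the list. Feature values were averaged over the passing cells of a phase in each library with at least 10 such cells. Phase differences and log2 ratios of cell SDs within libraries used exact two-sided sign-flip tests (7 libraries, 22 tests each). Media and conditions used exact permutation of library labels, a library present in both keeping 1 value on each. Benjamini-Hochberg adjustment used a threshold of 0.05. The band shares were not tested, and the course along the order was only described. The share of variance between libraries came from a 1-way split by method of moments, set to 0 where negative. Intervals are exact Clopper-Pearson, at the 95% level.

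The cells and features were chosen with earlier results of these data known. Every feature is named, and no gene or cell type marker could be. Alternatives were minimums of 5 and 20 cells, cells with 142925 to 367481 contacts (25th to 75th percentile of serum G1), medians, the median absolute deviation, leaving out each library or the library with both media, 2i conditions without a sort gate, and splitting the order within libraries. Added after the data were seen were single 2i conditions, removal of a linear trend on contacts, and the range of short-range share. The tests were also run on simulated normal values with effects set in advance, which does not show their power at the effects found here. Software was Python 3.11.15 (pandas 2.3.3, numpy 2.4.6, scipy 1.17.1), with matplotlib 3.10.9 for plots. The 4 nuclear RNA samples were not used here.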

Additional observations from a re-analysis of the deposited data

Results flagged for a closer look

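Among 104 groups of library differences that were searched for a value far from the rest, 2 held one, and chance would give about 1 in 20. In contacts per cell, G1 minus early-S, diploid 5_10 had 43287 more contacts in G1, against differences from -33567 to -5960 in the 6 other libraries. In contacts per cell along the order, diploid 9 had 120450 more in the later stretch of G1, against -40677 to 16476 in the 5 others.

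In 3 of 65 comparisons searched the libraries of 1CDS1 all went one way and those of 1CDS2 all the other way, with 3 libraries each. How many such cases would arise by chance was not computed, so nothing is read from this count. The differences were not tested. The far-contact distance in G1 minus late-S/G2 was -1.72 Mb in 1CDS1 and 0.855 Mb in 1CDS2. Contacts per cell in G1 minus late-S/G2 were -26352 in 1CDS1 and 22931 in 1CDS2. The log2 SD ratio of the share between chromosomes, G1 to early-S, was 0.35 in 1CDS1 and -0.32 in 1CDS2.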

How the results depend on the processing

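With 7 serum libraries the sign-flip calls sit at the smallest possible p, so fewer libraries end them by construction. The 11 phase calls numbered 11 with a minimum of 5 cells, not all the same ones, and 8 with medians. They were 0 with a minimum of 20 cells, 0 within the middle range of contacts and 0 to 0 when each library was left out. The 7 spread calls were 6 in number with a minimum of 5 cells and 0 with a minimum of 20, within the middle range of contacts, with the median absolute deviation, with the trend on contacts removed, and when any library was left out (0 to 0). The 3 calls between media were 0 with a minimum of 20 cells, 2 against 1CDU, 4 against NoSort and 3 in every other alternative. Within the middle range of contacts those 3 were not the same ones: contacts per cell no longer passed and the duplicated share did. The condition comparison had 0 calls throughout, and gave no value with a minimum of 20 cells or within the middle range of contacts, where the course gave none either. Features with 1 direction along the order numbered 6 or 7.

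Directions were kept in 321 of 325 values for media, 271 of 286 for phases, 298 of 312 for spread, 103 of 117 for conditions and 87 of 91 for the course. Those that turned were not called, and the cause was not tested. Between media, coverage deviation was 0.00590 with a minimum of 5 cells, the duplicated share 0.0326 points with a minimum of 20 and 0.704 against 1CDU, and the share between chromosomes 0.245 points at a short-range share of 50% to 60%. For G1 minus late-S/G2, contacts were -481 with a minimum of 5 cells, -14202 with 20, -3605 in the middle range and -6368 with medians, and far distance was 0.632 Mb with medians. For G1 minus early-S, the share without digestion was -0.330 points with a minimum of 20 cells and -0.0787 in the middle range, and coverage deviation -0.000321 in the middle range and -0.0183 with medians. Log2 SD ratios to early-S were 0.00871 (coverage deviation, minimum of 5), 0.140 and 0.00201 (share between chromosomes and share without digestion, minimum of 20) and 0.0223 (coverage deviation, middle range). Those to late-S/G2 were 0.0767 and 0.0434 (trans compartment score and share without digestion, minimum of 20), 0.362 and -0.0880 (trans compartment score and insulation, middle range) and -0.251 (insulation, median absolute deviation). Leaving out 1 library, G1 minus early-S of the share without digestion lay from -0.288 to 0.514 points. G1 minus late-S/G2 lay from -0.629 to 0.0463 Mb for far distance, -0.00194 to 0.0183 for alignment and -3972 to 11647 for contacts. Log2 SD ratios to early-S lay from -0.124 to 0.0583 for the share between chromosomes and from -0.117 to 0.0880 for coverage deviation. 1CDS1 minus 1CDS2 lay from -0.00856 to 0.00584 for replication, -0.00286 to 0.00563 for the trans compartment score and -0.0250 to 0.00248 for insulation.

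Phase, spread and course differences were taken within libraries, which pairs the cells of a library. For the comparisons between groups of libraries, no paired analysis was possible because the replicate numbers that diploid and haploid libraries share name libraries of groups that were not compared, and only 1 library, diploid 2_14, holds G1 cells of both media. Depth limits single cells: contacts per G1 cell spanned 27251 to 564076.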
